A study of Mus musculus with 6 samples.

Results

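The ABC, OATP and organic ion transporters of mouse liver were described from whole-liver RNA of 10-week-old C57BL/6 mice in 2 genotypes. The genes are the protein-coding members of the subfamilies Abca, Abcb, Abcc and Abcg of the ATP-binding cassette (ABC) transporters, of Slco, the organic anion transporting polypeptides (OATPs), and of Slc22a, the organic cation, anion and carnitine transporters. They were taken by their symbols, without the bile salt pump Abcb11 and the carnitine transporter Slc22a5, which gave 79 of the 45777 genes in the table. The WT group held 3 libraries from mice homozygous for the floxed Pak4 allele (Pak4 flox/flox), an allele that Cre recombinase can delete, with no Cre. The Pak4_KO group held 3 libraries from Alb-Cre; Pak4 flox/flox mice, in which the albumin promoter drives Cre in hepatocytes. Which other liver cells kept the gene cannot be read from whole-liver RNA. Both groups thus carried the floxed allele, and no group with Cre alone was analysed. The labels do not number the animals and give no sex, so the p-values below reflect variation among libraries, whatever its source.

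Hepatocytes take up bile acids, drugs and metabolites from blood across the sinusoidal membrane, in part through OATPs and Slc22a proteins, which need no ATP of their own. ABC transporters use ATP to pump conjugates, phospholipids and sterols across the canalicular membrane into bile, or back to blood across the basolateral membrane when bile flow is impaired. Further ABC proteins load cholesterol on lipoproteins or serve the mitochondria, and the nuclear receptors CAR, PXR and LXR, the factor NRF2 and sex-dependent growth hormone signals are known to control many of these genes in liver.

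Library totals ran from 39603272 to 52521400 reads. Pak4 itself had 5.93, 7.15 and 6.44 CPM (counts scaled to TMM-normalised library totals) in WT and 1.37, 2.24 and 1.90 CPM in Pak4_KO (log2 fold change -1.82, SE 0.24, edgeR adjusted p = 0.0169). The 8 hepatocyte markers (Alb, Apoa1, Ttr, Serpina1a, Cps1, Tat, Hnf4a and Asgr1) were all detected and summed to between 36362 and 45224 TPM (transcript shares scaled to a fixed total) in WT and between 45503 and 50625 TPM in Pak4_KO. Without Alb the sums overlapped, at 17079 to 18196 and 16386 to 18397 TPM. On the first principal component the WT libraries lay at -37.5, -39.1 and -22.9 and the Pak4_KO libraries at 27.0, 31.7 and 40.8. On the second, Pak4_KO replicate 1 (42.6) and WT replicate 3 (-46.8) lay farthest apart.

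No transporter gene passed edgeR's test between the genotypes, and the differences that came closest were a lower Slc22a7 and a higher Slc22a21 in Pak4_KO liver. Of the 79 genes, 54 had enough reads to be tested, and 0 of them reached an adjusted p under 0.05 in that quasi-likelihood test, where 76 of all 16197 tested genes did (0.469%, of which 0.265% higher and 0.204% lower in Pak4_KO). At an unadjusted p under 0.05 stood 9 of the 54 (16.7%), against 8.21% of all tested genes. Of these 9, Abcb4, Abcb8, Abcc3, Slc22a21, Slc22a27 and Slco1a4 had higher means in Pak4_KO (6 of 54, 11.1%, against 4.51% of all tested genes). Abcg8, Slc22a4 and Slc22a7 had lower ones (3 of 54, 5.56%, against 3.69%). Slc22a7 and Slc22a21 were among the genes at that threshold with any 1 of the 6 libraries left out, where the count over the transporters was 4 to 11. The transporters' share was nearest to that of all genes without WT replicate 1 (7.14% against 6.17%) and without WT replicate 3 (10.7% against 9.22%). The DESeq2 Wald test called 2 of the 54, Slc22a7 and Slc22a21, with 2.06% of all genes called, and limma-voom called 0, with 0.42% of all genes called. In 6 of the 54 (11.1%) the groups did not overlap in CPM, namely Abcb4, Abcb8, Slc22a21 and Slc22a27 higher and Abcg8 and Slc22a7 lower in Pak4_KO. The share over all tested genes was 13.4%, of which 7.35% higher and 6.06% lower.

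The median log2 fold change of the 54 tested transporters was 0.0025, with 27 above and 27 below 0, and that of all tested genes was 0.0045. Absolute log2 fold changes were under 0.5 in 43 of the 54 (79.6%) and in 82.9% of all tested genes. By family the medians were -0.021 for 11 tested Abca genes, 0.03 for 8 Abcb, 0.11 for 9 Abcc, -0.10 for 5 Abcg, 0.017 for 7 Slco and -0.0040 for 14 Slc22a genes. The Slc22a family held both the lowest value (Slc22a7, -2.13) and the highest (Slc22a26, 1.64), and 9 of its 14 tested genes (64.3%) lay within 0.5 of 0. In the Abca family 10 of 11 did.

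**Figure D1:**
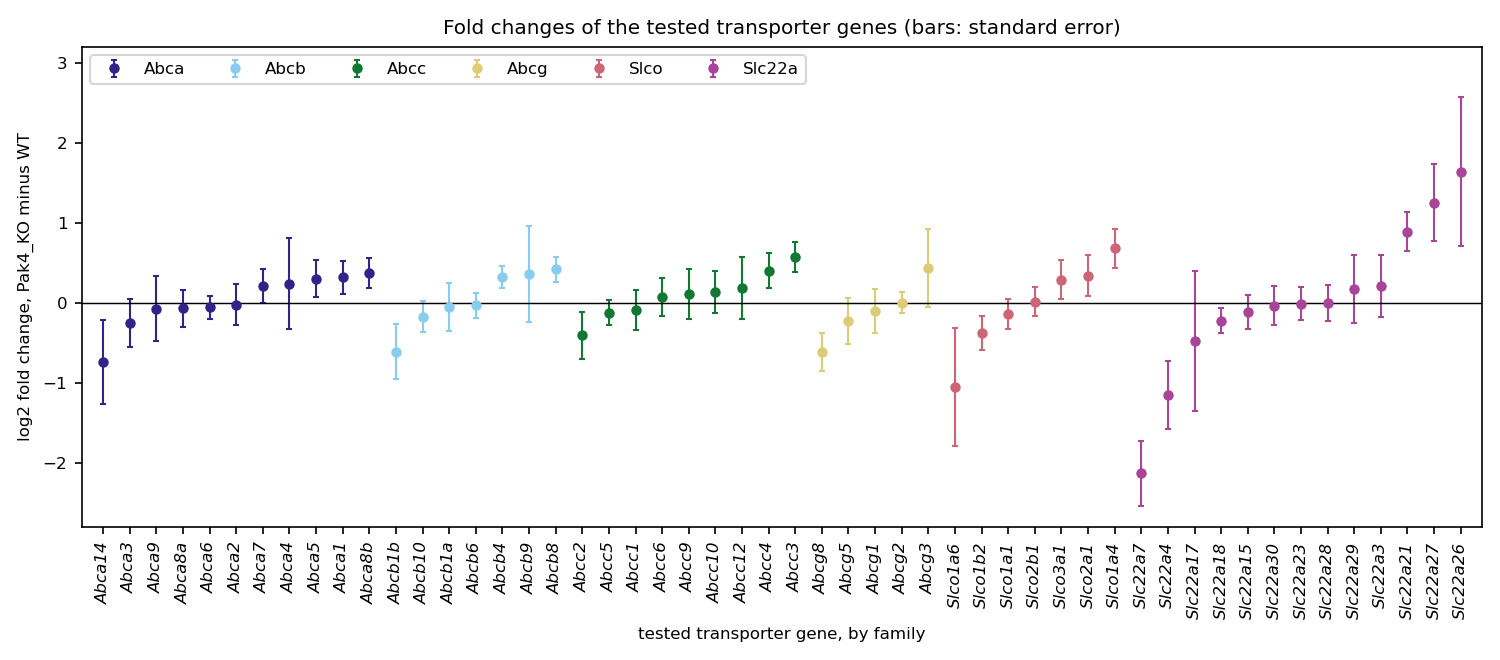
Log2 fold change (Pak4_KO minus WT, y axis) of 52 tested transporter genes, grouped and coloured by family and ordered by value within a family. Points are edgeR estimates and bars are standard errors. Most points lie within 0.5 of 0, and Slc22a7, at -2.13, is the lowest.

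Levels spanned from no read to 493 TPM, a scale that corrects for gene length and allows genes to be compared. Over all 6 libraries, 6 genes had a mean above 100 TPM. Among them were the uptake carrier Slco1b2 (mean 493 TPM), the cholesterol exporter Abca1 (261 TPM), the uptake carrier Slco1a1 (199 TPM), the conjugate pump Abcc2 (129 TPM) and the phospholipid floppase Abcb4 (113 TPM). A further 20 genes lay between 10 and 100 TPM, 16 between 1 and 10 TPM, 21 below 1 TPM with some reads, and 16 had no read in any library. In each library the 5 highest genes made up 54.2% to 60.02% of the summed TPM of all 79. That sum was 2093, 2173 and 2069 TPM in WT and 2541, 1907 and 2009 TPM in Pak4_KO, so the groups overlapped, with Pak4_KO replicate 1 the highest.

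**Figure D2:**
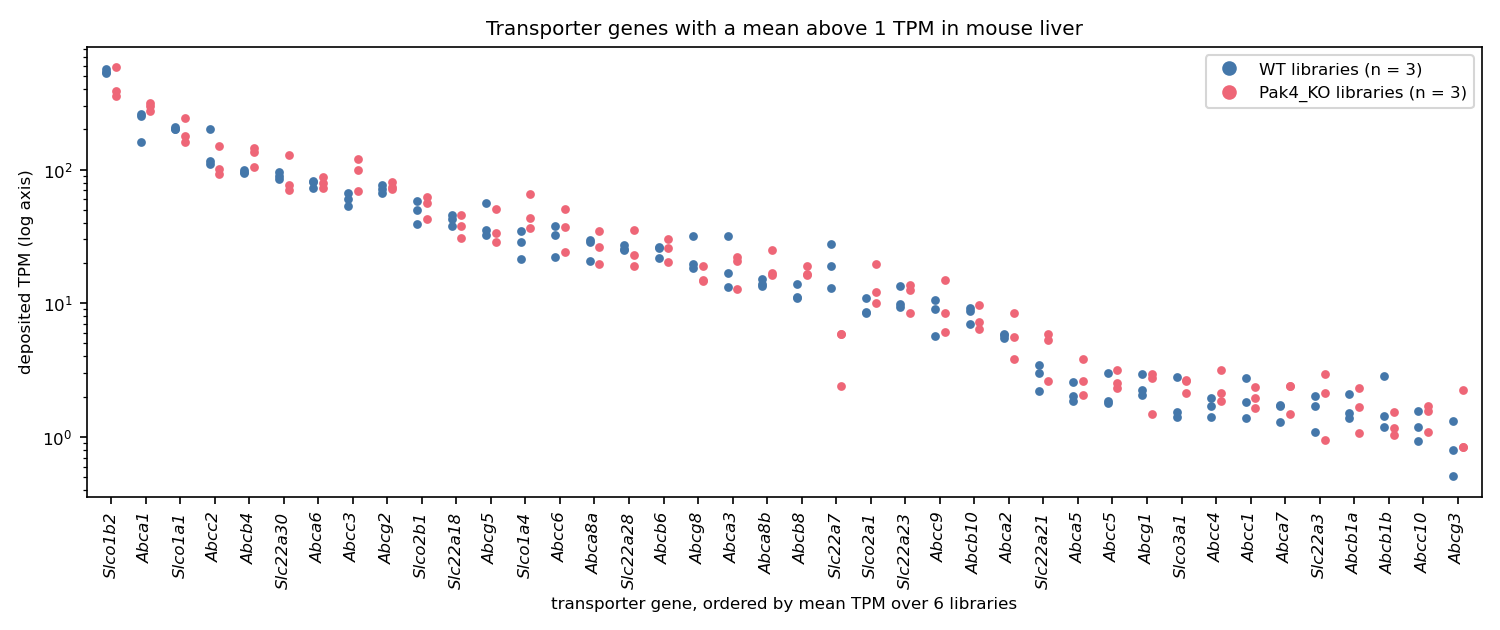
Deposited TPM in each library (log y axis) of 40 transporter genes with a mean above 1 TPM, in order of the mean. Each point is 1 library, WT left and Pak4_KO right, 3 each. Slco1b2 stands highest, and Slc22a7 is the gene with the widest gap between the groups.

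Among the sinusoidal uptake carriers, the data set Slc22a7 apart. Slc22a7 (NCBI gene 108114; GRCm38 chromosome 17, 46432185 to 46438477) encodes OAT2, a carrier of organic anions and cyclic nucleotides in the hepatocyte's blood-facing membrane. It stood at 22.1, 34.8 and 16.2 CPM in WT and at 6.89, 7.2 and 2.62 CPM in Pak4_KO. All 3 Pak4_KO libraries lay below all 3 WT libraries. The log2 fold change was -2.13 (SE 0.41), a mean 4.38-fold lower in Pak4_KO, with an unadjusted 95% interval of the ratio from 0.119 to 0.437. Its edgeR adjusted p was 0.0951, so it was not called, while the DESeq2 Wald test gave an adjusted p of 5.04e-06. The estimate ran from -2.36 to -1.79 as each library was left out in turn, with edgeR adjusted p from 0.0705 to 0.253. In whole liver, less RNA per cell and fewer cells that express a gene cannot be told apart, here or for any gene below.

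The other abundant uptake carriers showed smaller differences. Slco1b2, which carries conjugated bilirubin, bile acids and statins, had 1023, 1146 and 1086 CPM in WT and 1110, 768 and 635 CPM in Pak4_KO. The WT libraries were close together, and in Pak4_KO replicate 1 lay within their range while replicates 2 and 3 lay below it. The log2 fold change was -0.37 (SE 0.21, edgeR adjusted p = 0.717), or -0.63 (adjusted p = 0.257) without Pak4_KO replicate 1. Slco1a1, a carrier of bile acids and steroid sulfates that is known as male-biased in mouse liver, had the same order of Pak4_KO libraries, with 464, 497 and 514 CPM in WT and 561, 432 and 347 CPM in Pak4_KO (log2 fold change -0.14, SE 0.18, edgeR adjusted p = 0.926). Slco1a4, a carrier of bile acids and cardiac glycosides known as female-biased and as a PXR target, had 46.7, 67.6 and 80.7 CPM in WT and 80.0, 99.97 and 133 CPM in Pak4_KO. In CPM only the highest WT and the lowest Pak4_KO library overlapped. On the TPM scale these lay just apart, at 34.5 TPM for WT replicate 3 and 36.6 TPM for Pak4_KO replicate 1. Its mean was 1.61-fold higher in Pak4_KO (log2 fold change 0.68, SE 0.24, edgeR adjusted p = 0.473; unadjusted 95% interval of the ratio 1.10 to 2.35).

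Slco2b1, a carrier of steroid sulfates, gave a 95% interval of the ratio of 0.764 to 1.34, and its values in both groups lay between 107 and 152 CPM. Slc22a3 (OCT3), a carrier of monoamines, was low, at 2.37 to 4.44 CPM in WT and 2.01 to 5.66 CPM in Pak4_KO (log2 fold change 0.22, SE 0.39, edgeR adjusted p = 0.952). Of the 7 uptake carriers listed, 4 estimates were above and 3 below 0.

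The carnitine and ergothioneine carriers of the Slc22a family lie side by side on chromosome 11 and had estimates in opposite directions. Slc22a21 (OCTN3; 53949954 to 53980333), a carnitine carrier found in mouse, had 7.55, 5.87 and 7.0 CPM in WT and 8.45, 13.4 and 15.9 CPM in Pak4_KO. All Pak4_KO values lay above all WT values, replicate 1 only just. The mean was 1.85-fold higher (log2 fold change 0.89, SE 0.24, edgeR adjusted p = 0.275; DESeq2 adjusted p = 0.047). On the TPM scale the groups overlapped, at 3.43, 2.2 and 3.01 TPM in WT and 2.60, 5.30 and 5.88 TPM in Pak4_KO. Slc22a21 shares 23.8% of its 50-base stretches with Slc22a5, the adjacent carnitine carrier OCTN2 outside this gene set. Slc22a5 itself had 83.5, 58.2 and 62.9 CPM in WT and 117, 167 and 224 CPM in Pak4_KO (log2 fold change 1.31, SE 0.24, edgeR adjusted p = 0.0837). How the counts divided reads that match both genes is not given in the sources used here, so the value of Slc22a21 is uncertain.

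Slc22a4 (OCTN1; 53983115 to 54030040), the ergothioneine carrier, had 3.79, 4.52 and 1.49 CPM in WT and 1.04, 1.44 and 1.90 CPM in Pak4_KO. WT replicate 3 lay inside the Pak4_KO range, and the other WT libraries lay above it. The log2 fold change was -1.16 (SE 0.42, edgeR adjusted p = 0.50). Only 0.542% of its 50-base stretches are shared with Slc22a21. Both genes are low in liver, at a mean of 3.74 TPM for Slc22a21 and 0.918 TPM for Slc22a4.

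**Figure D3:**
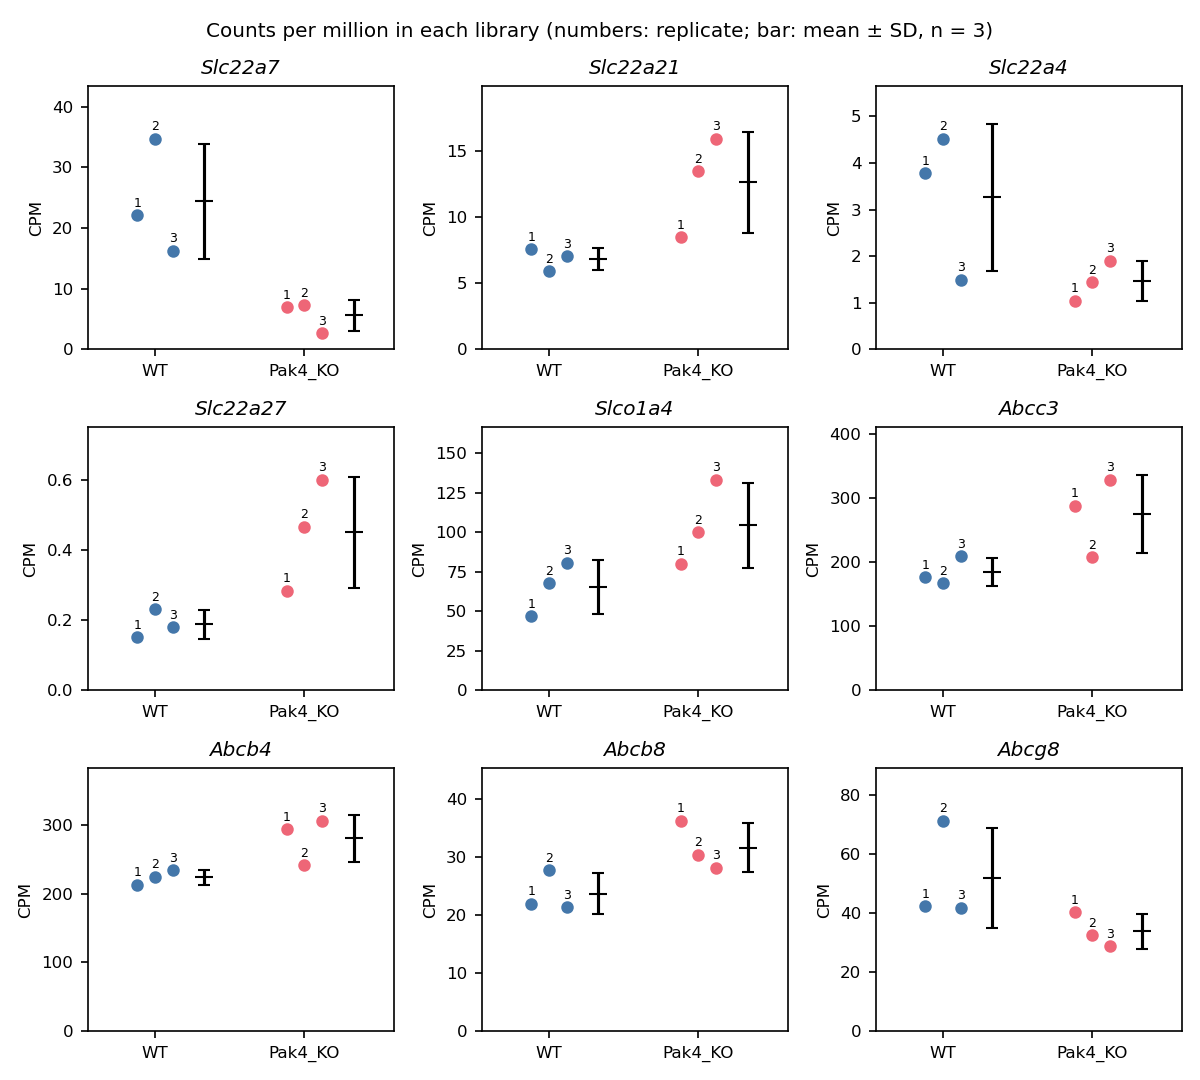
CPM in each library (y axis from 0) of the 9 transporter genes with an unadjusted p under 0.05, with replicate numbers beside the points. The bar beside each group is the mean and SD over 3 libraries. Slc22a7 shows the largest gap between the groups, and for Slc22a4, Slco1a4 and Abcc3 the groups overlap.

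Of the canalicular exporters, Abcb4 and Abcg8 separated the groups by small margins in CPM, Abcg8 not on the TPM scale. Abcb4 (MDR2), which moves phosphatidylcholine into bile, had 213, 225 and 234 CPM in WT and 294, 242 and 306 CPM in Pak4_KO. Its Pak4_KO replicate 2 lay just above the highest WT library. The mean was 1.25-fold higher (log2 fold change 0.33, SE 0.14, edgeR adjusted p = 0.578). Abcg5 and Abcg8 encode the 2 subunits of the sterol exporter that secretes cholesterol and plant sterols into bile. Abcg8 had 42.3, 71.4 and 41.8 CPM in WT and 40.3, 32.4 and 28.8 CPM in Pak4_KO, and Abcg5 had 46.0, 84.6 and 53.1 CPM in WT and 70.5, 49.0 and 37.6 CPM in Pak4_KO. For both subunits WT replicate 2 was the highest of all 6 libraries. The log2 fold change of Abcg8 was -0.62 (SE 0.23, edgeR adjusted p = 0.517) with all libraries and -0.31 (adjusted p = 0.751) without WT replicate 2. That of Abcg5 was -0.23 (SE 0.28, edgeR adjusted p = 0.920) and turned to 0.08 (adjusted p = 0.984) without it.

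Abcc2 (MRP2), the pump for conjugated bilirubin and glutathione conjugates, was also highest in WT replicate 2. It had 367, 678 and 367 CPM in WT and 468, 328 and 270 CPM in Pak4_KO (log2 fold change -0.41, SE 0.29, edgeR adjusted p = 0.806; -0.05 without WT replicate 2). WT replicate 2 stood at 1.85 times the mean of the other WT libraries for Abcc2, 1.71 times for Abcg5, 1.70 times for Abcg8, 1.81 times for Slc22a7 and 1.72 times for Slc22a4. For Slco1b2, Abcb4 and Abcg2 the same ratio was 1.09, 1.01 and 0.928, so it was not a shift of all transporters in that library. In Slc22a4 WT replicate 1 was also high (3.79 against 4.52 CPM in WT replicate 2), and WT replicate 3 was low (1.49 CPM).

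**Figure D4:**
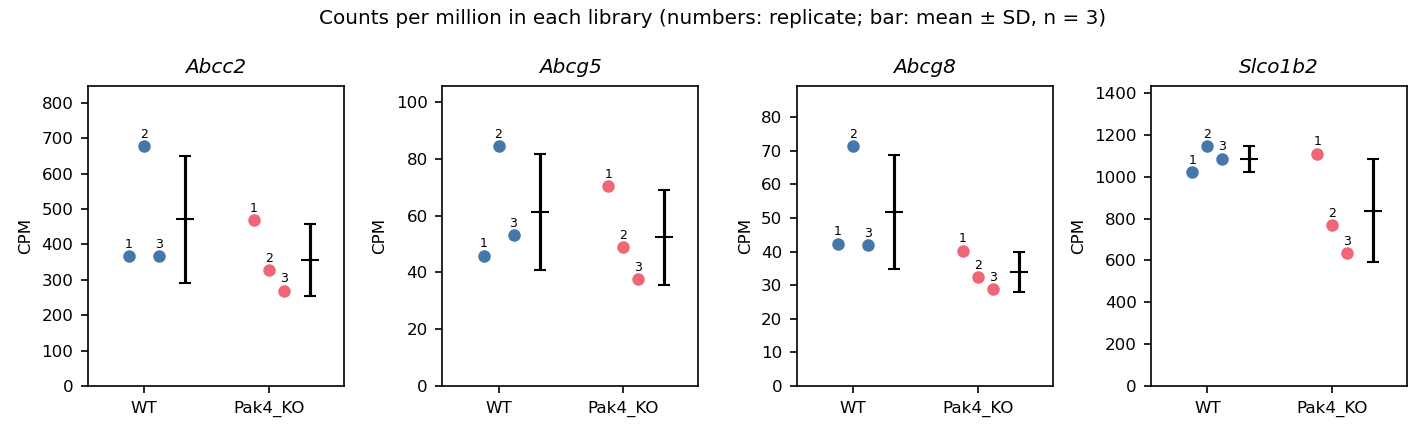
CPM in each library (y axis from 0) of Abcc2, Abcg5, Abcg8 and Slco1b2, with replicate numbers beside the points. The bar beside each group is the mean and SD over 3 libraries. WT replicate 2 is the highest library for Abcc2, Abcg5 and Abcg8, and for Slco1b2 the 3 WT libraries lie close together.

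The promoters of Abcc2, Abcg5 and Abcg8 are shown as those of exporters that were highest in WT replicate 2. Slc22a7 and Slc22a4 were also highest in that library, and their promoters are not shown. Abcg5 is read from the minus and Abcg8 from the plus strand, and in the RefSeq promoter entries of GRCm38.p6 their starts face each other across 109 bases, so both share the stretch printed first, chr17:84683012-84683120 on the plus strand. The second sequence is the 250 bases before the start of Abcc2, chr19:43782058-43782307 on the plus strand. Capitals mark matches on either strand, with no overlap between them. The motif searched first was AGATAA, the core bound by GATA factors. The second was TATAAA, the letters of the core promoter box of that name. The third was GTTAAC, the core bound by the hepatocyte factor HNF1. Also searched were AGGTCA, a part of the sites bound by nuclear receptors, and TGACNNNGC, the core of the antioxidant response element bound by NRF2.
Abcg5-Abcg8: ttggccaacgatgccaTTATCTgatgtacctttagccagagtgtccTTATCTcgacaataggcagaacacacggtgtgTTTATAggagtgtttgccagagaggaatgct
Abcc2: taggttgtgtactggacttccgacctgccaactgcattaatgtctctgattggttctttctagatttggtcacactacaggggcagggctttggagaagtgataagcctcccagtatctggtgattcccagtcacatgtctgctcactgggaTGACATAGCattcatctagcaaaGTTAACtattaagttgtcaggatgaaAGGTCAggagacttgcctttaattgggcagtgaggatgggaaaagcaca
The stretch between Abcg5 and Abcg8 holds 2 matches to AGATAA, which occurs in 3.98% of 32851 RefSeq promoter entries over the same length, and 1 to TATAAA, which occurs in 5.9%. No match was found there to GTTAAC (1.06% of entries), AGGTCA (6.39%) or TGACNNNGC (5.22%). The Abcc2 stretch holds 1 match each to GTTAAC (2.56% of entries over its length), AGGTCA (14%) and TGACNNNGC (10.2%), and none to AGATAA (9.99%) or TATAAA (12.4%). A further annotated start of Abcg8 lies inside Abcg5, so the gene ranges overlap on opposite strands (Abcg8 84676302 to 84700333, Abcg5 84658174 to 84683011 on chromosome 17). Whether the counts used the strand is not given in the sources used here, which leaves the division of reads between the 2 genes uncertain in the overlap.

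The remaining canalicular pumps showed no separation. Abcg2 (BCRP), which exports urate and sulfated conjugates, lay between 87.8 and 105 CPM in all 6 libraries, and the 95% interval of its ratio, 0.823 to 1.22, was the narrowest of the exporters into bile. The P-glycoprotein genes Abcb1a and Abcb1b, which export lipophilic drugs, were low, at means of 1.68 and 1.53 TPM. Abcb1b had 7.29, 3.22 and 3.86 CPM in WT and 2.60, 4.04 and 2.76 CPM in Pak4_KO (log2 fold change -0.61, SE 0.34, edgeR adjusted p = 0.717), with WT replicate 1 the highest. Abcb1a had 3.23 to 7.22 CPM over both groups, and the pair shares 15.5% of the 50-base stretches of Abcb1a, so their separate values are uncertain. Of the 7 canalicular exporters, 2 estimates were above and 5 below 0, with a median of -0.23.

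Among the pumps of the basolateral membrane, which send conjugates back to blood, Abcc3 had the largest difference. Abcc3 (MRP3), an exporter of glucuronides and a known CAR target, had 176, 167 and 209 CPM in WT and 288, 208 and 329 CPM in Pak4_KO. In CPM Pak4_KO replicate 2 lay just below the highest WT library, and the other Pak4_KO libraries lay above all of WT. On the TPM scale Pak4_KO replicate 2 (68.6 TPM) lay just above the highest WT library (67.4 TPM). The mean was 1.49-fold higher (log2 fold change 0.58, SE 0.19, edgeR adjusted p = 0.401; unadjusted 95% interval of the ratio 1.11 to 2.01). Abcc4 (MRP4), which exports bile acids with glutathione and cyclic nucleotides, had 6.59, 5.03 and 6.00 CPM in WT and 6.18, 7.32 and 9.76 CPM in Pak4_KO (log2 fold change 0.40, SE 0.22, edgeR adjusted p = 0.702). Its Pak4_KO replicate 1 lay within the WT range.

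The other basolateral pumps overlapped throughout. Abcc6, whose loss causes pseudoxanthoma elasticum in people and which supports ATP release from hepatocytes, had 88.5 to 133 CPM in WT and 88.1 to 157 CPM in Pak4_KO. Abcc1 (MRP1), an exporter of glutathione conjugates, had 5.09 to 9.56 CPM in WT and 5.95 to 7.90 CPM in Pak4_KO. Abcc5 (MRP5), an exporter of cyclic nucleotides, had 9.98 to 13.2 CPM in WT and 10.1 to 11.1 CPM in Pak4_KO. Their log2 fold changes were 0.07 (SE 0.23), -0.09 (SE 0.25) and -0.12 (SE 0.16), and on the TPM scale those of Abcc1 and Abcc5 were above 0.

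The 10 genes of cellular cholesterol and lipid export had estimates between -0.25 and 0.37, and none had an unadjusted p under 0.05. Abca1, the exporter that starts HDL formation and a known LXR target, had 1573, 1028 and 1613 CPM in WT and 1792, 1957 and 1514 CPM in Pak4_KO. WT replicate 2 was the lowest library, opposite to its place for Abcg5 and Abcg8. The log2 fold change was 0.32 (SE 0.21, edgeR adjusted p = 0.764), and 0.14 without that library. Abcg1, which exports cholesterol to HDL and is known as an LXR target in macrophages, was low at 7.46 to 10.8 CPM in WT and 5.03 to 9.69 CPM in Pak4_KO (log2 fold change -0.10, SE 0.28, edgeR adjusted p = 0.969).

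Abca8b had the highest estimate of the group. It had 59.2, 62.1 and 68.8 CPM in WT and 107, 71.6 and 67.3 CPM in Pak4_KO, where replicate 1 was far above WT and the others lay near its highest value (log2 fold change 0.37, SE 0.19, edgeR adjusted p = 0.670). Abca3, known for packing surfactant lipids in lung, had the lowest, with 119, 67.7 and 53.4 CPM in WT and 81.9, 49.7 and 71.0 CPM in Pak4_KO (log2 fold change -0.25, SE 0.30, edgeR adjusted p = 0.918). WT replicate 1 was its highest library. Abca6 and Abca8a, both well expressed at means of 79.6 and 26.6 TPM, gave 95% intervals of the ratio of 0.768 to 1.21 and 0.664 to 1.37. Abca2, Abca5, Abca7 and Abca9, at 0.758 to 5.84 TPM, had edgeR adjusted p from 0.829 to 0.998.

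The ABC transporters of mitochondria and lysosomes, which work as dimers, included Abcb8. Abcb8, a mitochondrial transporter tied to iron handling, had 21.9, 27.7 and 21.3 CPM in WT and 36.2, 30.4 and 28.1 CPM in Pak4_KO. The lowest Pak4_KO library lay just above the highest WT library. The mean was 1.34-fold higher (log2 fold change 0.42, SE 0.16, edgeR adjusted p = 0.523). Abcb10 and Abcb6, which serve heme and porphyrin metabolism, gave 95% intervals of the ratio of 0.654 to 1.20 and 0.763 to 1.25. Abcb9, a lysosomal peptide transporter, was near the detection limit at 0.239 to 1.32 CPM.

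The sulfonylurea receptors, ABC proteins that regulate potassium channels, differed from each other in level. Abcc9 (SUR2) had 39.3, 26.2 and 48.1 CPM in WT and 36.2, 27.3 and 59.3 CPM in Pak4_KO (log2 fold change 0.11, SE 0.31, edgeR adjusted p = 0.970), and Abcc8 (SUR1), the receptor of pancreatic beta cells, had no read. The summed stellate cell markers had the same order of libraries as Abcc9 within each group. They stood at 151, 96.7 and 153 TPM in WT and 156, 104 and 203 TPM in Pak4_KO. Dcn made up 68.1% to 79.4% of that sum. Without Dcn the order differed from that of Abcc9, at 31.6, 24.2 and 31.5 TPM in WT and 49.7, 23.7 and 47.9 TPM in Pak4_KO. The summed endothelial markers also had the order of Abcc9, at 94.8, 76.9 and 97.0 TPM in WT and 114, 81.1 and 128 TPM in Pak4_KO. The part of either cell type in the level of Abcc9 was not tested.

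Of the remaining tested genes named by rule, Slco2a1, the prostaglandin carrier, had 26.8 to 39.3 CPM in WT and 32.2 to 58.1 CPM in Pak4_KO (log2 fold change 0.34, SE 0.25, edgeR adjusted p = 0.813). Slco3a1, Abcc10, Abcc12, Abcg3, Abca4, Abca14 and Slco1a6 were all below 3 TPM on average, with edgeR adjusted p from 0.804 to 0.964. Slco1a6 had the largest estimate of them, -1.05 (SE 0.74), on 0.417 to 1.87 CPM in WT and 0.10 to 0.708 CPM in Pak4_KO.

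The organic anion carriers on chromosome 19 form the largest Slc22a neighbourhood, 8 genes within 955 kb, and differed in level by orders of magnitude. Slc22a30 and Slc22a28 stood at means of 91.5 and 25.8 TPM, while their neighbours Slc22a29, Slc22a26 and Slc22a27 stood at 0.627, 0.279 and 0.211 TPM. The kidney carriers at the end of the row, Slc22a8 (OAT3) and Slc22a6 (OAT1), and Slc22a19 had no read. Slc22a27 had 0.151, 0.231 and 0.179 CPM in WT and 0.283, 0.466 and 0.600 CPM in Pak4_KO, from 90 reads over all libraries. The groups did not overlap, and the log2 fold change was 1.25 (SE 0.48, edgeR adjusted p = 0.530). Slc22a26 had 0, 0.694 and 0.139 CPM in WT and 0.472, 1.08 and 1.10 CPM in Pak4_KO (log2 fold change 1.64, SE 0.93, edgeR adjusted p = 0.721), with overlap. Slc22a27 shares 25.3% of its 50-base stretches with Slc22a29, and Slc22a28 shares 53.3% with Slc22a30, so the division of reads within the row is uncertain. Apart from Slc22a27, these genes were chosen after their values were seen, as were other genes outside the naming rule below.

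The 25 genes that were not tested were nearly silent. Of these, 9 had between 3 and 34 reads over all 6 libraries together. The other 16 had none. They are Abca12, Abca15, Abca16, Abca17, Abcb5, Abcc8, Slco1a5, Slco6c1, Slco6d1, Slc22a2, Slc22a6, Slc22a8, Slc22a14, Slc22a16, Slc22a19 and Slc22a22. A count of 0 allows a level of up to 0.0571 to 0.0758 CPM in a library (3 reads of its total, counting error only). Several are known from other organs: Slc22a2 (OCT2), Slc22a6 and Slc22a8 from the kidney tubule, Abca12 from skin, and Slco6c1 and Slco6d1 from testis. Of 7 kidney markers, none was tested and 5 had no read, among them Slc34a1, Slc12a1, Aqp2 and Kap.

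Of the 79 genes, 43 lie in 13 groups of neighbours with gaps of at most 300 kb, and several of these rows hold both expressed and silent genes. On chromosome 6 the row Slco1c1, Slco1b2, Slco1a4, Slco1a1, Slco1a6, Slco1a5 and Abcc9 ran from 0.0624 to 493 to 38.4 to 199 to 0.424 to 0 to 9.10 TPM. Slco1b2 and Slco1a1 had estimates below 0 and their neighbour Slco1a4, which lies between them, one above 0. On chromosome 5 Abcb4 (113 TPM) lies next to Abcb1b (1.53 TPM) and Abcb1a (1.68 TPM). The row Abca8b, Abca8a, Abca9, Abca6 and Abca5 on chromosome 11 ran from 16.8 to 26.6 to 0.758 to 79.6 to 2.49 TPM.

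**Figure D5:**
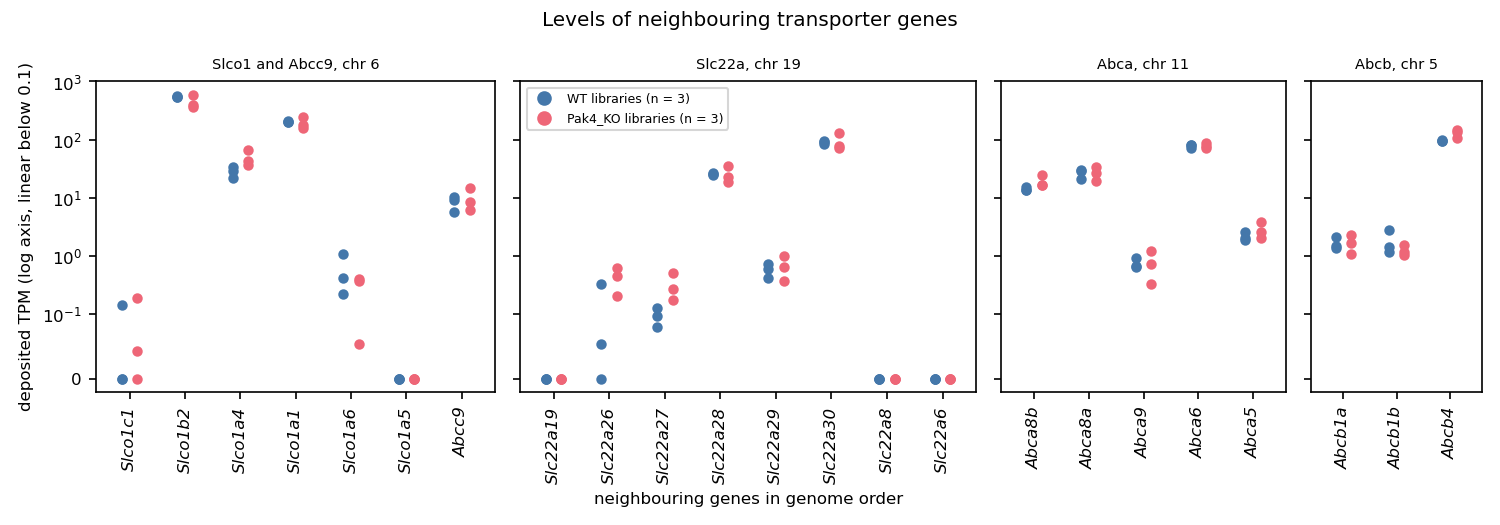
Deposited TPM in each library (y axis on a log scale, linear below 0.1) of the transporter genes in 4 groups of neighbours, in genome order. Each point is 1 library, WT left and Pak4_KO right, 3 each. Genes side by side differ by up to several orders of magnitude, and the genotypes overlap at most of them.

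Regulators and partners of these transporters were listed and tested in the same fit, and 0 genes of any such list were called. Of 17 transcription factors that control transporters, 6 had estimates above and 11 below 0, with a median of -0.06. Bcl6, a repressor in sex-dependent liver expression, went from a mean of 16.4 to 9.57 CPM without overlap (log2 fold change -0.78, SE 0.15, edgeR adjusted p = 0.0977), and Esrra, a regulator of mitochondrial genes, had 0.67 (SE 0.28, adjusted p = 0.575). Of 6 scaffold proteins that hold transporters at the membrane, 1 was above 0 and the median was -0.17, with Slc9a3r2 at 0.69 (SE 0.29, adjusted p = 0.576) and Ezr at -0.53 (SE 0.31, adjusted p = 0.737). Among 19 other tested liver transporters, 8 estimates were above and 11 below 0 (median -0.07), and Abcd2, a peroxisomal carrier of fatty acyl-CoA, had 1.72 (SE 0.37, edgeR adjusted p = 0.138), from a mean of 4.44 to 14.7 CPM.

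The listed target enzymes of CAR and PXR had estimates above 0 and those of NRF2 mostly below 0, though none was called. The 8 CAR and PXR target enzymes had a median of 0.37 beside 0.0045 for all tested genes. Their summed level was 3445, 2875 and 4907 TPM in WT and 6702, 5357 and 7470 TPM in Pak4_KO, without overlap. Cyp3a11, a main drug-oxidising enzyme, made up 37.9% to 53.04% of it in WT and 55.2% to 67.8% in Pak4_KO, and without Cyp3a11 the sums overlapped, at 1785 to 2304 and 2158 to 2538 TPM. Cyp3a11 went from a mean of 2171 to 4854 CPM (log2 fold change 1.16, SE 0.32, edgeR adjusted p = 0.289). Cyp2c55 had 0.83 (SE 0.47, adjusted p = 0.728).

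Of 10 NRF2 target enzymes, 9 estimates were below 0 and the median was -0.37. Their summed level was 3491, 3127 and 2527 TPM in WT and 2302, 2220 and 1789 TPM in Pak4_KO, also without overlap. Without Gstp1, a glutathione transferase and the most abundant of them, the sums overlapped, at 926 to 1676 and 824 to 1245 TPM. Gstp1 had -0.63 (SE 0.21, edgeR adjusted p = 0.418) and Gclc, the first enzyme of glutathione synthesis, -0.50 (SE 0.23, adjusted p = 0.639). LXR targets had 5 of 7 above 0 (median 0.35; Pltp 0.84, SE 0.34, edgeR adjusted p = 0.556; Lpl 0.35, SE 0.17, adjusted p = 0.646), and AhR targets 2 of 4 (median -0.05; Cyp1b1 0.77, SE 0.36, adjusted p = 0.648; Cyp1a2 -0.62, SE 0.30, adjusted p = 0.650).

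Markers of other cell types and of sex are given as values, with Moxd1 the only gene of these lists called. Neutrophil markers had estimates below 0 at all 6 genes, with summed levels of 83.9 to 145 TPM in WT and 59.1 to 68.6 TPM in Pak4_KO. Kupffer cell and macrophage markers were below 0 at all 8 (192 to 269 against 152 to 222 TPM). Cholangiocyte markers were above 0 at 7 of 8 (33.3 to 55.0 against 47.6 to 85.2 TPM), endothelial markers at 8 of 8 (76.9 to 97.0 against 81.1 to 128 TPM), stellate markers at 6 of 8 and lymphocyte and plasma cell markers at 2 of 4 (10.1 to 11.2 against 22.5 to 33.5 TPM). Of the adipose markers Adipoq had no read, Plin1 and Retn had reads in WT replicate 3 alone, and Cfd alone was tested. Cfd had 0, 0.105 and 0 CPM in WT and 0.236, 3.09 and 2.62 CPM in Pak4_KO (log2 fold change 5.68, SE 1.22, edgeR adjusted p = 0.138). Male-biased liver genes were below 0 at 8 of 10 (5627 to 11674 against 5184 to 7220 TPM), with Moxd1 called lower, and female-biased ones above 0 at 6 of 7 (68.7 to 212 against 338 to 578 TPM, with Sult2a1 and Hao2 at 0). Without Cyp4a10, the most abundant of the female-biased genes, their sums overlapped, at 22.8 to 34.1 and 32.1 to 51.9 TPM. Among the summed ranges given here, those of the Kupffer cell, cholangiocyte, endothelial and male-biased genes overlapped between the groups. The part of any of these lists in the transporter values was not tested.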

How the data were processed

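RNA from whole liver was kept in RNAlater, extracted with Trizol and made into TruSeq Stranded mRNA libraries, per the labels' protocols. HISAT2 2.1.0 and Bowtie2 2.3.4.1 (aligners), StringTie 2.1.3b and the build mm10 stand in the submitters' processing notes. For step order, annotation release, strand setting and multi-mapped reads, the answer is not given in the sources used here. Whole-number read counts per gene, TPM and FPKM stand in the table that the authors deposited, per the file headers. The FPKM were deposited too but not used here. Counts were tested, and deposited TPM were used to compare levels between genes and in 2 alternatives.

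The fit ran over all genes with edgeR 4.0.16 in R 4.3.3 (filterByExpr, TMM, glmQLFit, glmQLFTest, two-sided) over all 6 libraries. A call needed an adjusted p (Benjamini-Hochberg over 16197 genes) under 0.05. SE was computed as |log2 fold change| over the root of F, and CPM are TMM-scaled. In each library more genes had 2 reads than 1, so counting error may exceed what totals imply. Alternatives were DESeq2 1.42.0, limma 3.58.1 (voom, and trend on log2 TPM), other scalings and filters, a replicate block and each library left out. The procedure was tested on simulated data.

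Coordinates are 1-based from RefSeq GRCm38.p6, matched by gene ID for 45679 of 45777 genes. A RefSeq promoter entry matched 65 of 79 genes. Shared 50-base stretches were counted among GENCODE M21 coding transcripts. Members, lists and tests were chosen with earlier results of these data known. By rule the text names called members, tested members of the role lists and, per family, the 3 other tested members with the smallest p, plus 2 genes per regulator list. A few of these genes are not reported here.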

Additional observations from a re-analysis of the deposited data

How the results depend on the processing

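edgeR called 0 transporters with DESeq2 size factors, library size alone or either other filter, as did limma-voom and limma-trend on TPM, and edgeR with any 1 library left out (range 0 to 0 higher and 0 to 0 lower). With the DESeq2 Wald test 1 transporter was called higher and 1 lower. With the replicate number as a block 1 was called lower (Slc22a7, adjusted p = 0.0103) and 0 higher. Deviations from the group means were only weakly correlated between same-numbered libraries (r = 0.0669, -0.20 and 0.15). With 3 libraries a group these values cannot exclude a pairing, and the labels do not state one. Over all genes, the 43 higher and 33 lower calls became 175 and 159 with DESeq2, 16 and 28 with at least 10 reads in every library, which tests fewer genes, and 22 to 34 and 13 to 47 with 1 library left out. The median of the transporters ran from -0.07 to 0.13 as libraries were left out. Those with an unadjusted p under 0.05, counted so after the data were seen, fell from 9 (16.7%, against 8.21% of all tested genes) to 4 without WT replicate 1 (7.14% against 6.17%), to 6 without WT replicate 3 (10.7% against 9.22%) or Pak4_KO replicate 2 (10.9% against 7.33%) and to 5 without Pak4_KO replicate 3 (8.93% against 6.29%), and rose to 11 without Pak4_KO replicate 1 (20.0% against 9.24%). Of 44 named genes 23 kept the sign of the estimate in every alternative, among them the 9 with an unadjusted p under 0.05, Abcc2, Slco1b2 and Abca1. Slco1a6, Abca4 and Slc22a27 gave no value with at least 10 reads in every library.

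Signs turned as follows, and the cause was not tested. Abcg2 was -0.0018 with DESeq2 size factors and -0.0019 in the Wald test, and with library size alone Abca2 was 0.029 and Abcb6 0.018. On log2(TPM + 1) Abca6 was 0.020, Abca8a 0.0047, Abca2 0.0045, Abcb6 0.027, Abcc5 0.20 and Abcc1 0.022. On log2(TPM + 0.1) Abca6 was 0.020, Abca8a 0.0042, Abcb6 0.027, Abcc5 0.28 and Abcc1 0.043. Leaving out 1 library gave ranges across 0 for Abca2 (-0.38 to 0.20), Abca3 (-0.47 to 0.15), Abca4 (-0.30 to 0.52), Abca8a (-0.30 to 0.090), Abca9 (-0.54 to 0.27), Abcb1a (-0.40 to 0.19), Abcb6 (-0.16 to 0.076), Abcb9 (-0.19 to 0.96), Abcc1 (-0.28 to 0.17), Abcc6 (-0.19 to 0.24), Abcc9 (-0.26 to 0.34), Abcc10 (-0.027 to 0.34), Abcg1 (-0.26 to 0.14), Abcg2 (-0.060 to 0.070), Abcg3 (-0.14 to 0.88), Abcg5 (-0.50 to 0.078), Slco1a1 (-0.34 to 0.011), Slco2b1 (-0.11 to 0.17) and Slc22a3 (-0.12 to 0.54). With 3 libraries a group, smaller differences than those above may go unseen.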
